A study of Rickenella mellea with 14 samples.

Results

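Mature fruiting bodies of the mushroom Rickenella mellea were compared with its vegetative mycelium. The comparison took 8 of the 14 libraries of the series by their labels, the 3 of mycelium (RM_VM) and the 5 of mature fruiting bodies, which were 3 of caps (RM_FB_C) and 2 of stipes (RM_FB_S, replicates 1 and 4). Cap and stipe were given equal weight in gene levels and gene tests, so that a fruiting body level is the mean of the 2 tissue means. Measures with 1 value per library, such as the number of detected genes, use the plain mean of the 5 libraries. Mycelium of strain SZMC22713 had been grown on Fries agar, while the fruiting bodies had been picked in the field, with fully expanded caps on stipes 20 to 32 mm tall. The labels give that same strain for every library, and the series text speaks of biological replicates without giving the number of individuals, so a p-value here speaks of the spread among these samples, which may be technical. Primordia (n = 3) and young fruiting bodies (n = 3), also from the field, complete the series and are used here for their levels and for the estimate of spread shared by all groups in the fit. The mycelium libraries had a flow cell to themselves and the field material shared the other. In every difference from mycelium, stage, culture or field growth, and flow cell therefore cannot be told apart, while caps and stipes were both mature, field-grown and on the same flow cell.

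A mushroom spends most of its life as mycelium, a network of hyphae that secretes enzymes and takes up food from its substrate. The fruiting body is the sexual organ that this network builds. Its cap carries the spore-bearing layer, in which basidia undergo meiosis and form spores, and its stipe is a stalk of elongated hyphae that lifts the cap into moving air. No product names come with the gene models in the files. Models are therefore called by their identifier number, and the labelled tissues could not be checked against known markers.

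Mycelium libraries held 13.6 to 16.5 and fruiting body libraries 21.5 to 54.6, in units of 1e6 reads, so the precision of low levels is lower in mycelium. Mycelium replicates 2 and 3 ranked genes alike, with a Spearman correlation across genes of 0.988, while replicate 1 reached 0.934 and 0.940 with them. Mycelium correlated with cap and stipe libraries at 0.831 to 0.858. Because replicate 1 of mycelium stands apart, counts are also given without it.

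Of 15559 gene models tested, 2133 were higher in the mature fruiting body and 1839 were lower, which is 13.7% and 11.8% of those tested and 25.5% in all. A gene was called at an adjusted p under 0.05 in edgeR's quasi-likelihood test with at least a 2-fold change. Changes of at least 16-fold were called for 366 higher genes (2.35% of those tested) and 291 lower genes (1.87%), and changes of at least 64-fold for 183 and 130. The remaining 11587 genes were not called, and the median size of the change over all tested genes was 0.79 on the log2 scale. In 5478 genes (35.2% of those tested) the 5 fruiting body libraries did not overlap with the 3 of mycelium, of which 3029 (19.5%) lay above and 2449 (15.7%) below. Among the called genes, 1845 of the higher ones (86.5%) and 1549 of the lower ones (84.2%) had no overlap. These are bulk samples, in which fewer cells of a type and less RNA per cell cannot be told apart.

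Under most settings the number of called genes stayed within 1.5 times of 3972, but which direction held more genes changed. The most calls, 4762 (2495 higher, 2267 lower), came with only the 8 libraries in the fit, and the DESeq2 test gave 4512. At 2-fold the fewest came with the replicate block, at 2694. Without mycelium replicate 1, 2140 genes were higher and 1738 lower, and 3369 of these calls were also among the 3972 made with it. With the size factors of DESeq2 in place of TMM, 1834 genes were higher and 2099 lower, and the median log2 change of all genes moved by -0.12. The lower genes were also the larger number with library size alone, with the DESeq2 test, with the length trend removed, and without cap replicate 1, 2 or 3 or stipe replicate 1.

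**Figure D1:**
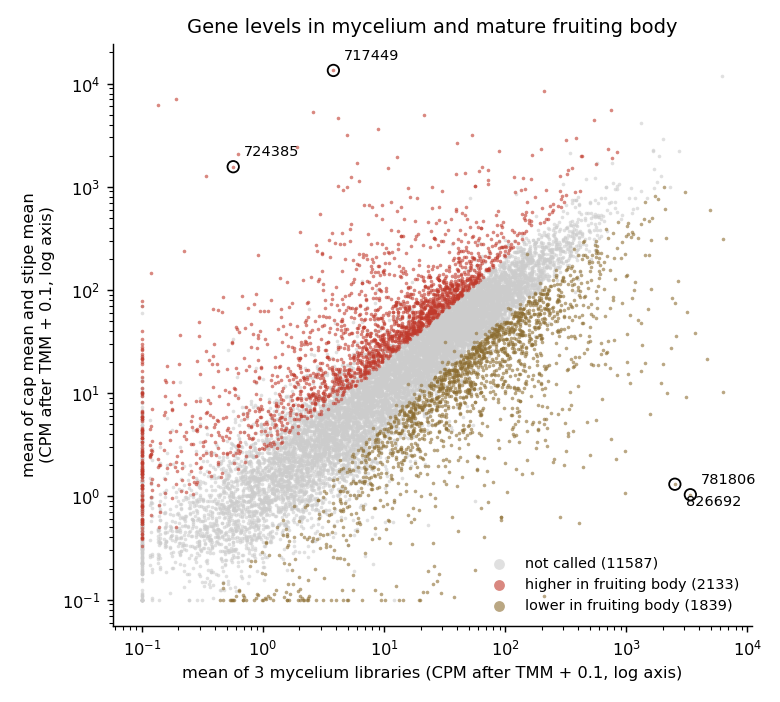
Mean level of each tested gene model in mycelium (horizontal) and in the mature fruiting body (vertical), in counts per 1e6 reads after TMM scaling with 0.1 added, on log axes. Colours mark the 2133 genes called higher, the 1839 called lower and the 11587 not called. Circles mark the 4 genes with the largest changes among called genes chosen for no overlap between the groups, mostly unique reads and at least 3 reads in every library of the lower side.

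The largest changes were taken among called genes with at least 3 reads in every library of the lower side. These genes also had mostly unique reads and no overlap between the fruiting body and mycelium libraries. Separation of the groups was therefore set by the choice of genes and is not read as a result. Levels are in counts per 1e6 reads (CPM) after TMM scaling. Gene model 717449 stood at 5.44, 2.68 and 3.02 CPM in mycelium, at 10522, 21353 and 20269 in caps and at 10892 and 7874 in stipes. Its change from mycelium was 11.75 ± 0.86 on the log2 scale (SE; edgeR adjusted p = 3.46e-06). No tested gene had a higher mean RPKM in cap, at 17164, a scale that divides by gene length, while the same gene ranked 8 in stipe and 11861 in mycelium.

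Gene model 724385 was nearly silent in mycelium at 0.55, 0.382 and 0.468 CPM, which rests on 9, 7 and 9 reads. Caps gave 1353, 450 and 1016 CPM and stipes 2589 and 1781 CPM, so both stipes lay above all 3 caps. The change from mycelium was 11.57 ± 0.96 on the log2 scale (edgeR adjusted p = 6.65e-06), and the difference between cap and stipe did not pass the same test (log2 difference -1.22 ± 0.67, edgeR adjusted p = 0.269).

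In the other direction, gene model 781806 fell from 6451, 2121 and 1594 CPM in mycelium to 1.31, 0.855 and 1.69 in caps and 0.516 and 0.667 in stipes. The log2 change was -11.92 ± 1.30 (edgeR adjusted p = 4.09e-05). Its mycelium levels spread widely, with replicate 1 the highest. Its lowest mycelium library, at 1594 CPM, stood above every fruiting body library, an order that the choice of genes ensures.

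Gene model 826692 fell from 1859, 3782 and 1930 CPM in mycelium to 0.349, 1.42 and 0.901 in caps and 1.65 and 1.42 in stipes, a log2 change of -11.08 ± 0.60 (edgeR adjusted p = 4.14e-07). Here replicate 2 was the highest mycelium library. By mean RPKM both fallen genes were among the most abundant of mycelium, at ranks 9 and 12, while in cap they ranked 13778 and 14367 and in stipe 14570 and 13432.

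These genes did not share a course through the stages outside the comparison. Gene model 717449 stood at 205 to 669 CPM in primordia and at 10232 to 20736 CPM in young fruiting bodies, so the young bodies overlapped with the mature caps and the primordia lay between them and mycelium. Gene model 724385 was already at 292 to 2289 CPM in primordia. Gene model 826692 was at 0.683 to 1.60 CPM in primordia, within the range of the mature tissues. Gene model 781806, by contrast, still stood at 14.6 to 278 CPM in primordia and 20.1 to 72.4 in young fruiting bodies, above every mature library.

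**Figure D2:**
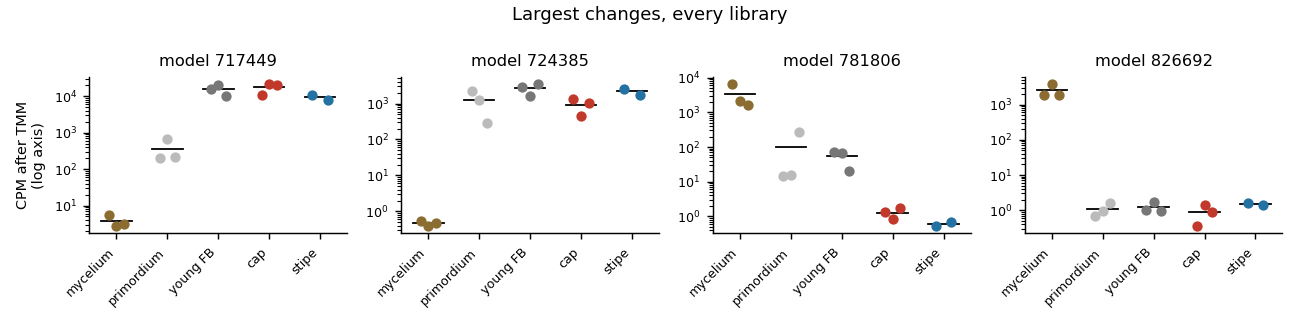
Level of the 4 genes with the largest changes in each of the 14 libraries, in CPM after TMM scaling on a log axis, with a line at each group mean. Models 717449 and 724385 are lowest in mycelium and models 781806 and 826692 highest there, while the primordia of model 717449 (205 to 669 CPM) lie between mycelium and the later stages.

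Over the whole lists, the field stages outside the contrast mostly lay on the fruiting body side. They are not independent of the lists, as they entered the filter, the scaling and the estimate of spread. TMM factors were 0.572 to 0.786 in primordia, 1.14 to 1.35 in mycelium and 1.04 to 1.26 in mature libraries. Primordium levels are thus scaled up against both, and these counts were not made without that scaling. On the scale of log2(CPM + 1) after TMM, 1431 of the 2133 higher genes (67.1%) were nearer to the mature level than to mycelium in primordia. In young fruiting bodies 1889 (88.6%) were so. Of the 1839 lower genes, 1442 (78.4%) and 1639 (89.1%) were nearer to the mature level. Among genes not called, the shares were 57.7% and 62.8%. In primordia 273 of the higher genes (12.8%) had a level below that of mycelium, against 18 (0.844%) in young fruiting bodies. Lower genes with a level above that of mycelium numbered 166 (9.03%) and 35 (1.9%). Of the 11587 genes not called, 3910 (33.7%) and 2777 lay on the side of mycelium away from the mature level. Called genes were chosen with the same mycelium levels, which favours small shares among them. The shares nearer to the mature level also rest on the levels that chose the genes. Primordia and young bodies share the field and the flow cell with the mature tissues, so these counts do not set stage apart from growth condition.

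The called genes held a large part of the RNA pool. Genes called higher took 5.77% to 6.24% of the reads of the mycelium libraries, 30.4% to 33.0% of those of caps and 38.1% and 39.2% of those of stipes. Genes called lower took 35.8% to 37.7% of mycelium reads, 7.15% to 7.65% of cap reads and 6.44% and 6.67% of stipe reads. As the calls came from these same libraries, the shares describe the lists and test nothing. In libraries outside the comparison, the higher genes held 25.4% to 34.2% of primordium reads and 30.2% to 31.2% of young fruiting body reads. The lower genes held 6.74% to 10.5% and 7.39% to 7.89% there. The 366 genes that were at least 16-fold higher took 13.3% to 14.9% of mature fruiting body reads against 3.54% to 6.06% in primordia and 11.2% to 12.3% in young bodies.

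**Figure D3:**
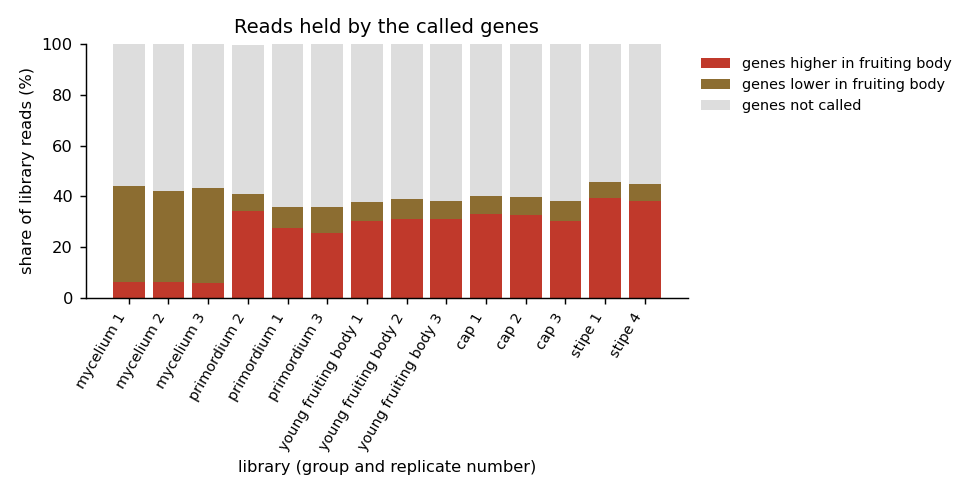
Share of each library's reads, in percent, held by genes called higher in the mature fruiting body (red), called lower (brown) and not called (grey). The brown part is 35.8% to 37.7% in the 3 mycelium libraries and at most 10.5% in every field library.

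The most abundant transcripts differed between mycelium and fruiting body. Of the 100 genes with the highest mean RPKM in mycelium and the 100 highest in the fruiting body, 36 were shared, or 36% of each list, whereas cap and stipe shared 50. Within the mycelium list 61 genes were called lower and 4 higher, and within the fruiting body list 52 were called higher and 2 lower. Each list was chosen by level in the libraries tested, which favours that direction. Gene model 840947, the most abundant in mycelium at a mean of 13907 RPKM, stood at 4885, 4493 and 5261 CPM there, at 234, 299 and 382 in caps and at 648 and 1131 in stipes. It fell by 3.23 on the log2 scale (SE 0.38, edgeR adjusted p = 6.3e-05), and its ranks by mean RPKM were 111 in cap and 37 in stipe.

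Complete switches were rare. With on set at 10 CPM or more by library total in every library of 1 side and off at 0 reads in every library of the other, 4 gene models were on in the fruiting body and off in mycelium, and 0 the reverse. The 4 models were 103704, 794162, 795207 and 817227, named because they were so few and after their values were seen. Their levels in the mature libraries ran from 10.3 to 76.5 CPM by library total, where 3 reads, the upper limit for a count of 0, equal 0.182 to 0.221 CPM in the mycelium libraries. In the mature libraries 3 reads equal 0.0549 to 0.139 CPM. Since these were deeper and more numerous, 0 reads was harder to meet there. The counts of 4 and 0 are therefore not on equal terms. All 4 had reads in every primordium and every young fruiting body library, though 794162 had only 1 read in young fruiting body replicate 3. When under 0.5 CPM was accepted as off, 8 genes were on in the fruiting body and 2 in mycelium. The first count rose from 4 to 8 without mycelium replicate 1 or cap replicate 1 and to 9 without cap replicate 2, and the reverse count went from 0 to 6 without mycelium replicate 1.

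More genes were detected in the fruiting body than in mycelium at the same depth. After every library was thinned at random to 13.6 (in units of 1e6 reads), 14435, 14760 and 14576 genes had at least 3 reads in mycelium, 14977, 14772 and 14987 in caps and 15107 and 14937 in stipes. The fruiting body mean of 14956 ± 121 (SD, n = 5) exceeded the mycelium mean of 14590 ± 163 (n = 3) by 366 genes, with no overlap (exact permutation p = 0.0179, two-sided, the smallest possible with 56 splits). The groups were close, as cap replicate 2 (14772) exceeded mycelium replicate 2 (14760) by few genes. Each library was thinned by 1 random draw, and whether other draws would keep the groups apart was not tested. With at least 10 reads required the groups overlapped (exact permutation p = 0.0536, two-sided). The exact permutation p was 0.0571 (two-sided) without cap replicate 1, cap replicate 3, stipe replicate 1 or stipe replicate 4, with the groups still apart.

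The 10 genes with most reads held 5.25% to 6.76% of a mycelium library, 8.47% to 10.15% of a cap library and 8.13% and 12.27% of a stipe library. The top 10 therefore held more in every fruiting body library than in any of mycelium (means 9.67% and 5.75%, exact permutation p = 0.0179, two-sided, the smallest possible). The list of 10 was an alternative setting, as was one of 1000 genes, where the exact permutation p was 0.786 (two-sided). For the 100 genes with most reads, the main setting, the means were 24.1% ± 4.02 (SD, n = 5) and 20.8% ± 1.27 (n = 3). That difference did not pass the test (exact permutation p = 0.214, two-sided). In this measure stipes, at 26.9% and 29.8%, lay above caps at 20.5% to 21.8%, and caps overlapped with mycelium.

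Longer gene models leaned towards the fruiting body. Tested models were placed in 3 length bins of equal size. In the bin of longest models (1552 to 12044 bases) 19.9% were called higher and 9.16% lower, while in that of the shortest (150 to 913 bases) 9.45% were higher and 11% lower. The median log2 change of the longest bin lay 0.34 above that of the shortest. With each library's trend on length removed through offsets, that gap became 0.07, the shares of the longest bin became 13.3% and 12.5%, and 1779 genes were called higher and 2025 lower in all. Calls were also more frequent at high levels, from 12.8% in the lowest to 35.4% in the highest of 4 equal bins of mean CPM.

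**Figure D4:**
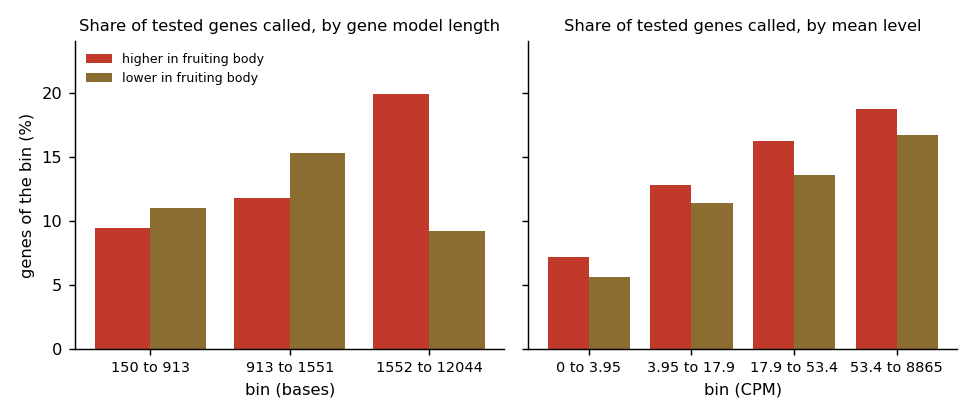
Percent of tested gene models called higher (red) or lower (brown) in the mature fruiting body, in 3 bins of model length in bases (left) and 4 bins of mean level over the 8 libraries in CPM (right). Red exceeds brown clearly in the longest bin (19.9% and 9.16%), and both rise with level.

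Each tissue was also set against mycelium on its own. In caps 2220 genes were higher and 1721 lower (14.3% and 11.1% of those tested, 25.3% in all), and in stipes 2066 were higher and 1588 lower (13.3% and 10.2%, 23.5% in all). These majorities also moved with the setting. For cap, 1865 were higher and 1952 lower with DESeq2 size factors, and the lower genes were also more with the DESeq2 test and with the length trend removed. For stipe, 1661 were higher and 1891 lower with library size alone, and the lower genes were also more with the DESeq2 test, with the length trend removed and without cap replicate 1, 2 or 3. The cap and stipe comparisons share the mycelium libraries, so their agreement is not read as a result. Whether the change from mycelium differed between the tissues is answered by the test of cap against stipe, which called 1954 genes (12.6%), 1113 higher in cap (7.15%) and 841 higher in stipe (5.41%). With library size alone these were 1330 and 578. The majority turned to stipe, with 202 genes against 76 for cap, when stipe replicate 4 was left out, and with 74 against 26 under the replicate block. Without stipe replicate 1 they were 454 and 393, and without cap replicate 3 they were 807 and 486. Calls for the fruiting body use the same cap and stipe libraries, so a large rise in 1 tissue favours both calls. Levels differed too, with median fruiting body log2(CPM + 1) of 5.25 for higher, 3.65 for lower and 3.75 for uncalled genes. The shares that follow therefore describe the lists and test nothing. Among genes called higher in the fruiting body 556 (26.1%) also differed between cap and stipe, of which 318 were higher in stipe and 238 in cap. Among those called lower, 203 (11%) did, and among those not called 1195 (10.3%). Much of this rests on single libraries, since without stipe replicate 4 the shares were 7.91% for higher and 1.68% for lower genes, beside 1.75% of all tested, and without stipe replicate 1 they were 15.8%, 8.09% and 5.37%.

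Gene model 811097 had the smallest adjusted p against mycelium among genes, at least 90% of their reads unique, that also differed between the tissues and rose further in cap. It stood at 2.81, 3.33 and 3.38 CPM in mycelium, at 153, 160 and 141 in caps and at 8.41 and 5.70 in stipes. The change from mycelium was 5.57 ± 0.30 in cap (edgeR adjusted p = 8.77e-07) and 1.15 ± 0.28 in stipe (edgeR adjusted p = 0.00993), on the log2 scale. Gene model 899299 rose in both tissues, from 14.1, 14.6 and 14.3 CPM in mycelium to 304, 290 and 172 in caps and 72.6 and 65.6 in stipes. The tissues did not overlap, which the choice of genes called between them favours.

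Some genes abundant in mycelium fell furthest in the cap. Gene model 784989, at 4600, 1239 and 3469 CPM in mycelium, was at 1.72, 2.08 and 3.32 in caps and at 12.3 and 19.2 in stipes. Its log2 change was -10.35 ± 0.71 in cap and -7.62 ± 0.77 in stipe (edgeR adjusted p = 3.03e-06 and 3.46e-05). Gene model 781276 went from 1014, 900 and 1295 CPM to 35.7, 36.1 and 25.6 in caps and 86.7 and 74.6 in stipes. Both genes kept more of their level in stipe than in cap.

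Gene model 822416 had the smallest adjusted p against mycelium among genes, at least 90% of their reads unique, that also differed between the tissues and rose further in stipe. It stood at 4.40, 7.05 and 6.14 CPM in mycelium, 206, 180 and 192 in caps and 3168 and 3300 in stipes. The change from mycelium was 9.11 ± 0.39 in stipe (edgeR adjusted p = 1.97e-07) and 5.04 ± 0.32 in cap (edgeR adjusted p = 1.99e-06). Gene model 799531 followed in the same order with smaller steps, from 3.30, 3.50 and 1.66 CPM to 99.0, 73.9 and 78.7 in caps and 192 and 154 in stipes.

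The same rule gave 2 genes that fell further in stipe. Gene model 782872 went from 362, 219 and 186 CPM in mycelium to 3.34, 3.64 and 4.17 in caps and 0.800 and 0.667 in stipes, a log2 change of -8.43 ± 0.67 in stipe (edgeR adjusted p = 7.54e-06). Gene model 785163 went from 82.1, 97.5 and 109 CPM to 19.2, 16.7 and 14.0 in caps and 7.82 and 8.01 in stipes. In both, caps and stipes did not overlap, which the choice of genes called between the tissues favours. Without stipe replicate 4 the difference between cap and stipe lost its call for 784989, 781276, 799531, 782872 and 785163, with edgeR adjusted p-values of 0.0883 to 0.142, while 811097, 899299 and 822416 kept it.

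Equal weighting hides genes that moved apart in the tissues. Gene model 779989 had the highest mean RPKM in stipe (36287) and ranked 2 in mycelium and 20 in cap. It stood at 4817, 6650 and 6965 CPM in mycelium, 772, 889 and 1615 in caps and 12626 and 32187 in stipes, so that the 3 groups did not overlap although the stipes were far apart. The log2 change from mycelium was -2.49 ± 0.56 in cap (edgeR adjusted p = 0.00545) and 1.87 ± 0.58 in stipe (edgeR adjusted p = 0.033), and the weighted change was -0.31 ± 0.47 (edgeR adjusted p = 0.658). Its call in stipe was lost when any 1 of the 8 libraries other than stipe replicate 1 was left out, with an adjusted p of 0.354 without stipe replicate 4. In all, 31 genes were called in opposite directions in the tissues, 18 higher in cap and 13 higher in stipe, and 8 without stipe replicate 4.

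**Figure D5:**
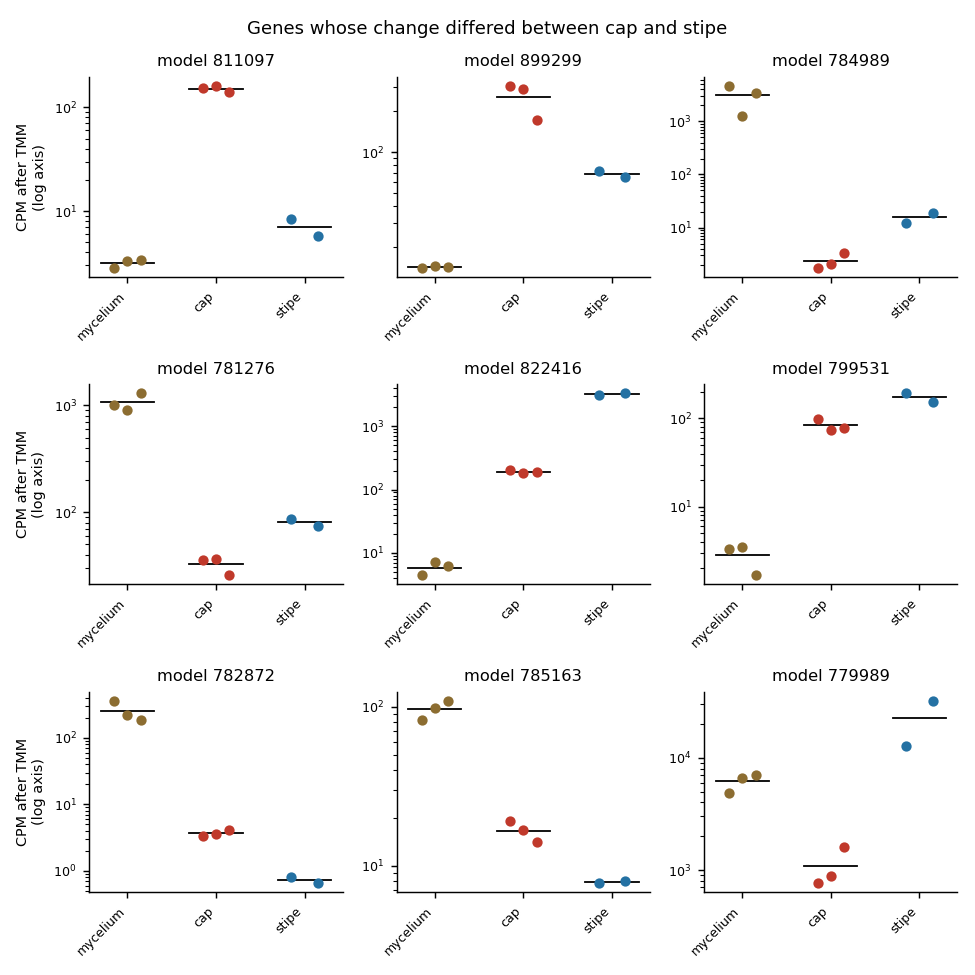
Levels in the mycelium, cap and stipe libraries, in CPM after TMM scaling on a log axis with a line at each group mean, of the 8 genes named for a change that differed between the tissues and of model 779989. Models 811097 and 899299 are highest in cap, models 822416, 799531 and 779989 highest in stipe, and the other 4 highest in mycelium.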

How the data were processed

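Polyadenylated RNA had been sequenced with the TruSeq kit v2, which does not mark strand, per the labels' protocols. Per the file headers, the authors deposited total and unique read counts, RPKM and gene length for 17139 gene models of the set Ricmel1. The deposited counts are whole numbers without normalization, and the deposited RPKM values matched total reads divided by length and library total within a relative tolerance of 0.001 in 100% of rows. Of the reads, 99.32% to 99.45% were unique to 1 model in the 8 libraries compared. Versions in the submitters' processing notes are 3.0.2 for R, 3.4.2 for edgeR and 3.18.13 for limma. No mapper and no genome build is given in the sources used here.

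Total counts were tested by quasi-likelihood in edgeR (version 4.0.16, under R 4.3.3) after filterByExpr and TMM scaling, with all 14 libraries in 1 fit of 5 groups (9 residual degrees of freedom) and Benjamini-Hochberg adjustment over 15559 genes. Standard errors are the log2 change divided by the square root of F. Simulated data with planted changes were also run through the procedure, but they lacked the other group differences of these data. No result here rests on them. Alternatives were scaling by DESeq2 1.42.0 size factors or by library size alone, no filter, DESeq2 and limma-voom (limma 3.58.1), unique reads, only the 8 libraries, 4-fold, removal of the length trend, each library left out, and the replicate number as a block.

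The 2 higher and 2 lower genes named first had the largest changes among called genes with at least 3 reads in every library of the lower side, no overlap between the groups and at least 90% unique reads. The cap and stipe genes had the smallest adjusted p against mycelium among those that also differed between the tissues and changed more in that tissue. The most abundant gene of each tissue by mean RPKM was added. The groups, lists and tests were chosen with earlier results of these data known.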

Additional observations from a re-analysis of the deposited data

Results flagged for a closer look

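The change from mycelium differed between cap and stipe, by the edgeR test of cap against stipe, for 10 of the genes named above. On the log2 scale the cap effect minus the stipe effect was 4.42 for gene model 811097 and 1.89 for 899299, the genes named for their rise in cap. It was -2.73 for 784989 and -1.31 for 781276, which fell further in cap. It was -4.07 for 822416 and -1.05 for 799531, which rose further in stipe, and 2.32 for 782872 and 1.07 for 785163, which fell further there. The 8 genes were chosen for this difference, so it describes them. For 840947, the most abundant gene of mycelium, it was -1.54, and for 779989, the most abundant of stipe, -4.36. Models 811097 and 822416 kept this call in each alternative run with at least a 2-fold change required, with adjusted p-values up to 0.0121 and 0.0108, and 899299 with each library left out. Without stipe replicate 4 the edgeR adjusted p was 0.0883 for 784989, 0.131 for 781276, 0.0967 for 799531, 0.142 for 782872, 0.142 for 785163 and 0.365 for 840947, so these lost the call. Without stipe replicate 1 it was 0.157 for 781276, 0.161 for 799531, 0.0766 for 782872, 0.0923 for 785163 and 0.0671 for 840947. The call of 781276 was also lost without cap replicate 1, 2 or 3 (0.0616, 0.060 and 0.102), that of 799531 without cap replicate 2 or 3 (0.0745 and 0.0682), and that of 840947 without any 1 of the cap libraries (0.127, 0.109 and 0.0705) or without mycelium replicate 2 or 3 (0.0517 and 0.0544).

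The 31 genes called in opposite directions in the 2 tissues against mycelium were all called between cap and stipe, which opposite calls nearly ensure. Alternatives for this number were added after the data had been seen. It was 8 without stipe replicate 4, 14 without mycelium replicate 3, 16 without mycelium replicate 1, 17 without mycelium replicate 2, 19 without cap replicate 3 and 20 without cap replicate 2. It was 56 with the DESeq2 test and 74 with only the 8 libraries in the fit.

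Of the gene models left out by the filter, 1 stood at 10 CPM or more in mycelium replicate 1, with 206 reads, and under 1 CPM in every other library.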

How the results depend on the processing

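The 13 named genes apart from 779989 kept direction and call against mycelium in 239 of 239 alternative values. They were chosen in these same libraries for large changes, small p-values or high abundance, so this rate does not speak for the calls at large. Between cap and stipe, 142 of 180 values of 10 genes kept it, 38 lost the call and 0 turned. Requiring 4-fold left 1887 genes for the fruiting body, 2005 for cap, 1811 for stipe and 802 between the tissues, fewer by construction. With each library left out, the counts ran from 2992 to 3883, from 2979 to 3757, from 2002 to 3600 and from 278 to 1938. For stipe against mycelium (3654) the count was 2172 without stipe replicate 1 and 2002 without stipe replicate 4.

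With the replicate block, 2694 genes were called for the fruiting body (1558 higher, 1136 lower), 1390 for stipe against mycelium, 100 between cap and stipe (26 higher in cap, 74 in stipe), and 5 in opposite directions. Same-numbered cap and mycelium libraries deviated from their group means with correlations of 0.048, 0.040 and 0.020, each above those with the other mycelium libraries. Replicate 1 of stipe gave 0.063 with replicate 1 of mycelium and -0.24 with replicate 1 of cap. Across all pairs, not every library correlated best with its own number. Values from so few libraries cannot settle whether same-numbered libraries were paired. The block also takes up stipe replicate 4, the only library with that number.

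The difference in the share of reads was 3.29 percentage points for 100 genes, 3.92 for 10 and 0.749 for 1000, and 1.87 to 4.21 with each library left out. The difference in detected genes was 283 with at least 10 reads and 288 to 450 with a library left out. The exact permutation p (two-sided) was then 0.0571 in 4 of 8 cases (without cap replicate 1 or 3 or either stipe library), 0.0286 without cap replicate 2 and 0.0476 without each mycelium library, where 0.0286 and 0.0476 are the smallest possible. The 4 genes on in the fruiting body and off in mycelium became 10 at 5 CPM and 0 at 20 CPM, and 4 to 9 with a library left out, while the reverse count ran from 0 to 6. With 1 stipe library left out, the spread of the remaining one was taken from the other groups. Depth limits genes low in mycelium.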
